A study of Saccharomyces cerevisiae with 6 samples.

Results

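The small heat shock proteins and protein disaggregases of budding yeast are represented here by 6 genes, HSP12, HSP26, HSP30, HSP42, HSP78 and HSP104, among the 5656 genes that Affymetrix yeast arrays measured in a strain engineered to use xylose. They were chosen by name, as the probe sets annotated to these genes, and each gene has 1 probe set that carries no other gene symbol. All 6 were above the intensity floor on at least 1 array and entered the fit with 5462 genes, although HSP26, HSP30 and HSP78 lay at the floor on some arrays. The locus tags are YFL014W for HSP12, YBR072W for HSP26, YCR021C for HSP30, YDR171W for HSP42, YDR258C for HSP78 and YLL026W for HSP104.

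The strain YSX3 is MATalpha and carries leu2::LEU2-XYL1, ura3::URA3-XYL2 and Ty3::NEO-XYL3, which add the xylose pathway of Pichia stipitis. All 6 arrays share these insertions, since the respiration-deficient (petite) mutant FPL-YSX3P was derived from the strain. Each of 6 conditions was measured on 1 array. Aerobic cells grew in YP medium with 20 g/L glucose or xylose and were taken at an OD600 of 1. Oxygen-limited cells had 40 g/L of either sugar and were taken at an OD600 of 30, so oxygen supply, culture density and sugar amount cannot be told apart. Petite cells on glucose were likewise taken at an OD600 of 1. For xylose, such glucose-grown petite cells spent 24 hours in xylose medium, so the sugar and the transfer cannot be told apart there. The petite samples come from 1 mutant line.

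Small heat shock proteins bind unfolding proteins and hold them in small assemblies, from which other chaperones can refold them. HSP26 and HSP42 encode the small heat shock proteins of the alpha-crystallin type in the yeast cytosol. Hsp104 is a ring-shaped ATPase that threads proteins out of aggregates together with Hsp70, and Hsp78 is its relative in the mitochondrial matrix. Hsp12 is a small, largely unfolded protein that folds on membranes, and Hsp30 is a plasma membrane protein linked to the control of the proton pump Pma1. Transcription of many of these genes depends on the heat shock factor Hsf1 and on the stress activators Msn2 and Msn4, and several are known to be low in yeast growing fast on glucose.

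The labels were compared with marker genes. The 3 alpha cell markers were above the floor on all 6 arrays and summed to between 1143, on petite xylose, and 6701. The 3 markers of the opposite mating type summed to between 660.1 and 1496. Of these the alpha-factor receptor gene STE2 was at the floor on both aerobic arrays and at most 101.5 elsewhere. MFA1, another of them, lay between 488.3 and 1245. On petite xylose the sums were 1143 for the alpha markers and 1011 for the others, so they did not separate the mating types there. The alpha marker MF(ALPHA)2 was lower on xylose by limma (estimate -2.95 on the log2 scale, SE 0.28, adjusted p = 0.0318). The 7 genes of the mitochondrial genome summed to between 1666 and 4110 on the 4 YSX3 arrays and to 220.3 and 303 on the petite arrays, where OLI1 and COX1 were at the floor. COX3, another of the 7, went the other way, at the floor on both aerobic arrays, at 78.01 and 149.2 under oxygen limitation and at 136.6 and 204 in the petite mutant, on glucose and xylose. The 5 hypoxic genes summed to 2002 and 2134 on the aerobic arrays and to 2096 and 2429 on the oxygen-limited ones, on glucose and xylose. Their sum was highest on petite glucose, at 3516, with ANB1 at 927.2 and DAN1 at 221, and lowest on petite xylose, at 1666. ANB1, a gene that oxygen represses, was lower in oxygen-limited than in aerobic culture by limma (estimate -1.55 on the log2 scale, SE 0.32, adjusted p = 0.0306), and DAN1 was at the floor on all 4 of those arrays. These genes thus did not mark the oxygen-limited arrays, and ANB1 went against their label. Deposited median intensity ran from 127.3 to 165.9, and between 88.0% and 90.5% of genes were above the floor on each array. A floor of 61.7 was set at the 25th percentile of the scaled intensities, and values below it were raised to it.

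All 6 genes were higher on xylose than on glucose in aerobic and in oxygen-limited culture, and 5 of 6 were higher in the petite mutant. For all genes the median of this difference was 0 on the log2 scale in aerobic and in oxygen-limited culture and -0.04 in the petite mutant. HSP30, HSP26 and HSP42 rose under oxygen limitation, by 4.06, 3.36 and 1.37 on the log2 scale, while HSP12 was high on every xylose array whatever the background. In the sugar and petite comparisons none of the 6 passed the test. Intensities below are scaled to a common array median of 150.9, and levels of different probe sets are not compared with each other.

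HSP12 was at 323.9 on the aerobic glucose array and at 5319 on the aerobic xylose array. Under oxygen limitation it was at 351.6 on glucose and 4827 on xylose, and in the petite mutant at 1359 and 5238. The 3 xylose arrays were close together and all above the 3 glucose arrays, and among the glucose arrays the petite mutant stood highest.

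The small heat shock gene HSP26 was at the floor on the aerobic glucose array, with a scaled value of 60.4, and at 221.3 on aerobic xylose. It was at 304.3 and 4706 on glucose and xylose under oxygen limitation and at 851.2 and 1320 in the petite mutant. The aerobic arrays were the lowest 2 of the 6, and the oxygen-limited xylose array stood apart above the rest.

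HSP42, the other small heat shock gene, was at 342.3 and 871.9 on aerobic glucose and xylose, at 817.2 and 2448 under oxygen limitation, and at 523.8 and 1001 in the petite mutant. On both sugars the order was aerobic below petite below oxygen-limited. The values of oxygen-limited glucose and of aerobic xylose were also near each other, so glucose and xylose arrays overlapped.

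HSP30 covered the widest range. It was at the floor on aerobic glucose, with a scaled value of 56.1, and at 123.7 on aerobic xylose, then at 396.5 and 5369 on glucose and xylose under oxygen limitation and at 279.8 and 494.5 in the petite mutant. The oxygen-limited xylose array was 10.9-fold above the petite xylose array, its nearest neighbour. The difference between the highest and the lowest array was at least 6.44 on the log2 scale for HSP30 and at least 6.25 for HSP26. Of the 5656 genes, 0 had a wider range of floored values than HSP30 and 1 a wider range than HSP26, which was HSP30 itself.

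HSP78, the mitochondrial disaggregase gene, was at the floor on all 3 glucose arrays, with scaled values of 57.7, 39.3 and 55.8 in aerobic, oxygen-limited and petite cells, and at 87.1, 145.1 and 69.9 on the matching xylose arrays. Every xylose array lay above every glucose array, but the petite xylose value exceeded the floor only slightly.

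HSP104, the cytosolic disaggregase gene, was at 290.8 and 495.6 on aerobic glucose and xylose and at 208.2 and 672.4 under oxygen limitation. In the petite mutant it was at 313.8 on glucose and 251.4 on xylose. The petite xylose array was therefore below the aerobic and petite glucose arrays, and the sugars overlapped.

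**Figure D1:**
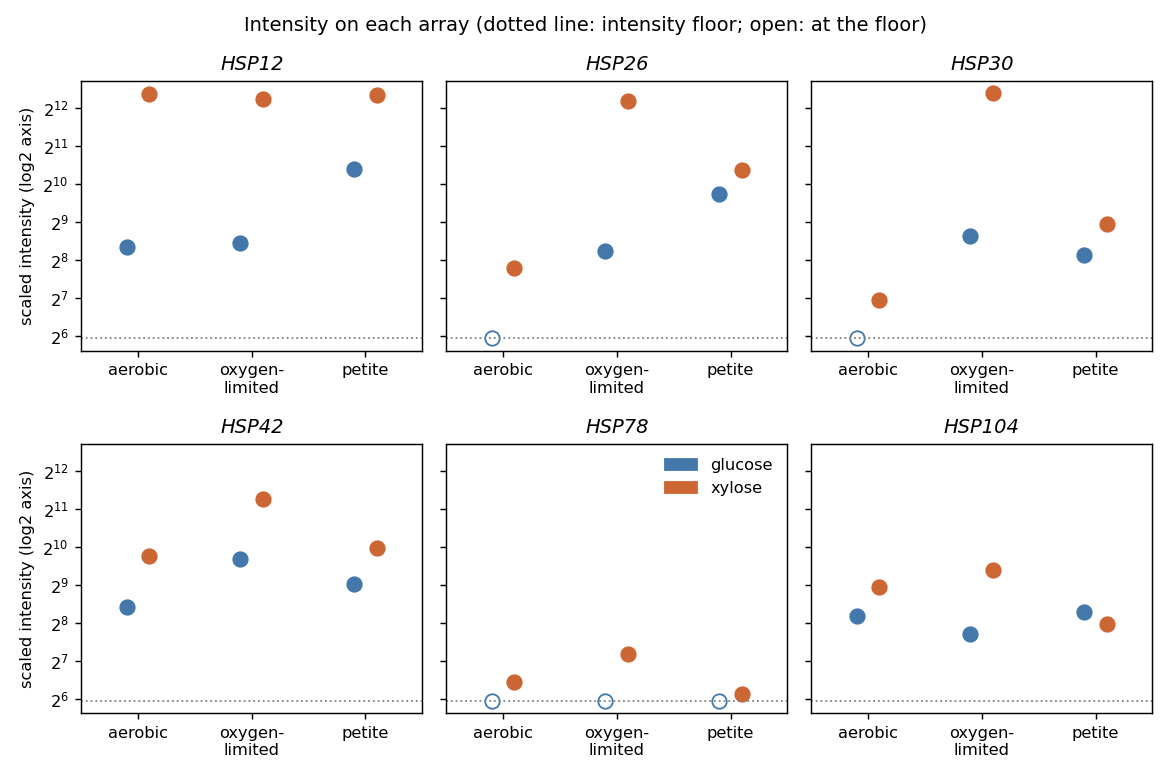
Scaled intensity (log2 axis) of each gene on the 6 arrays, with glucose in blue and xylose in orange for each background; points are single arrays, the dotted line is the floor of 61.7 and open points lie at it. The oxygen-limited xylose array was highest for 5 of the 6 genes, while the xylose arrays of HSP12 lay together between 4827 and 5319.

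Without replicate arrays no spread over samples can be given, so neighbours in the order of each gene were set against the SD among probe sets that share a gene, for the same pair of arrays, which covers only part of the error. For the pairs of neighbours this spread ran from 0.10 to 0.49 on the log2 scale. By that measure the 3 xylose arrays of HSP12 were not separated, with steps of 0.02 and 0.12, nor were its aerobic and oxygen-limited glucose arrays, with a step of 0.12. For HSP26 all 5 steps exceeded the spread, although that between oxygen-limited glucose and aerobic xylose, 0.46 against 0.43, did so barely. For HSP30 petite xylose and oxygen-limited glucose, with a step of 0.32, were not separated. HSP42 did not separate petite xylose, aerobic xylose and oxygen-limited glucose. For HSP78 only the step of 0.74 below the oxygen-limited xylose array exceeded the spread, although aerobic xylose minus aerobic glucose was at least 0.5 (spread 0.1). For HSP104 the lowest 4 arrays, petite glucose, aerobic glucose, petite xylose and oxygen-limited glucose, differed by steps of 0.11, 0.21 and 0.27 that lay within the spread. Arrays further apart in that order could still exceed it. Petite minus oxygen-limited glucose was 0.59 (spread 0.46), and petite xylose minus petite glucose was -0.32 (spread 0.19).

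The first comparison asked how the genes differ between the sugars over the 3 backgrounds. With limma, a linear model of sugar and background on log2 intensity, 0 of the 6 genes passed an adjusted p of 0.05 in either direction, against 0.677% of all genes called higher and 0.0732% called lower. At an unadjusted p under 0.05, 5 were higher and 0 lower, against 12.0% of all genes higher. HSP12 had an estimate of 3.25 on the log2 scale (95% interval 2.17 to 4.34, SE 0.43), the third highest of 5462, and missed the threshold with a limma adjusted p of 0.0526. HSP42 missed it too, at 1.29 (0.83 to 1.75, SE 0.18, limma adjusted p = 0.0606). All of the 6 but HSP104 were higher on xylose in 3 of 3 pairs, and these pairs are what the estimates average. The estimates of HSP26 and HSP30 were larger than that of HSP42, at 2.14 (SE 0.61) and 1.86 (SE 0.60), and less certain, with limma adjusted p of 0.164 and 0.185. HSP78 was at 0.64 (SE 0.24, limma adjusted p = 0.218) and HSP104 at 0.71 (SE 0.38, limma adjusted p = 0.334), whose interval of -0.26 to 1.69 includes 0. The median of the 6 estimates was 1.57, beside -0.03 for all genes.

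The call for HSP12 depended on settings. Its limma adjusted p was 0.0473 with the values as deposited, 0.0225 with the floor at the 10th percentile, 0.042 with a variance trend and 0.0471 without the petite pair. Over 11 alternatives it ran from 0.0225 to 0.251 and the estimate from 2.86 to 3.91. HSP42 was called by 1 of 11 alternatives, the floor at the 10th percentile (limma adjusted p = 0.0395; 0.0395 to 0.269 over the alternatives).

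The sugar difference was not of the same size in each background. Each pair is a difference of 2 single arrays and was not tested. In aerobic culture HSP12 was higher on xylose by 4.04 on the log2 scale, or 16.4-fold, the second highest of 5138 genes compared. HSP26 was higher by at least 3.59-fold, HSP30 by at least 2-fold and HSP78 by at least 1.41-fold, all bounds because glucose was at the floor, and HSP42 by 2.55-fold and HSP104 by 1.70-fold. Of the 6 genes, 4 were at least 2-fold higher, where 3.13% of all genes were, with HSP30 at that boundary through its bound, and 0 were at least 2-fold lower, where 2.1% of genes were.

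Under oxygen limitation all 6 genes were at least 2-fold higher on xylose, where 8.76% of genes were higher and 4.24% lower by that much. HSP26 was higher by 15.5-fold, HSP12 by 13.7-fold and HSP30 by 13.5-fold, and these were the fifth, the sixth and the eighth highest of 5217 genes. HSP104 was higher by 3.23-fold, HSP42 by 3-fold and HSP78 by at least 2.35-fold. The median of the 6 was 2.73 on the log2 scale, beside 0.00 for all genes.

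In the petite mutant the differences were smaller. HSP12 was higher on xylose by 3.85-fold and was the only one of the 6 at least 2-fold higher, where 5.76% of genes were, and 0 were at least 2-fold lower, where 5.28% were. HSP42 was higher by 1.91-fold, HSP30 by 1.77-fold and HSP26 by 1.55-fold. HSP78 was higher by at least 1.13-fold, and HSP104 was 1.25-fold lower. The median was 0.73 on the log2 scale in the petite pair and 1.18 in the aerobic one. With 1 array a condition, whether the sugar difference depends on the background cannot be tested.

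**Figure D2:**
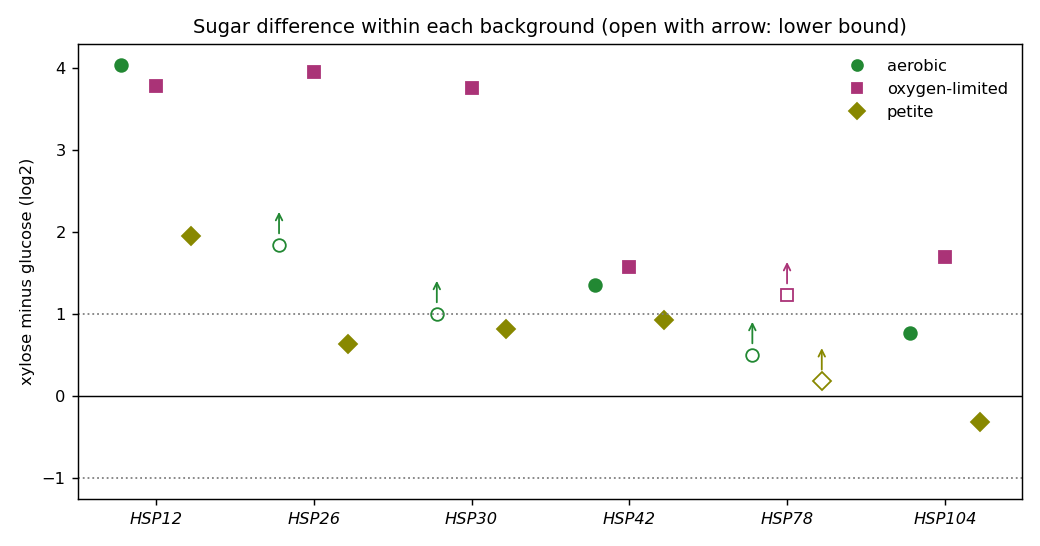
Xylose minus glucose on the log2 scale within aerobic, oxygen-limited and petite cells; each point is a difference of 2 single arrays, an open point with an arrow is a lower bound with glucose at the floor, and dotted lines mark 2-fold. The oxygen-limited differences of HSP12, HSP26 and HSP30 lie between 3.76 and 3.95, and the petite difference of HSP104 is -0.32.

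Departure from the additive model can be read from the residual SD of each gene, which measures how unequal the sugar differences were. It was 1.19 on the log2 scale for HSP26 and 1.16 for HSP30, with 15 and 16 of 5462 genes above them, and 0.81 for HSP12 and 0.71 for HSP104. HSP42 was the exception among the genes above the floor on all arrays, with a residual SD of 0.23 and 43.2% of genes above it. Its sugar differences were 1.35, 1.58 and 0.93 in the 3 backgrounds. The estimates for HSP26 and HSP30 are thus averages over unequal differences, and together with HSP78 they also depend on the floor.

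The second comparison asked how the genes differ between oxygen-limited and aerobic culture over both sugars. Here 3 of 6 genes rose and 0 fell, while 8.04% of all genes were called higher and 15.9% lower. With the values as deposited, without scaling, the calls over all genes turned from 439 higher and 868 lower to 1032 higher and 430 lower, and the median of all genes moved from -0.08 to 0.21. The same 3 of the 6 genes were higher under that scaling. HSP30 rose by 4.06 on the log2 scale (95% interval 2.20 to 5.93, SE 0.74, limma adjusted p = 0.0251), the highest estimate of 5462 genes. HSP26 rose by 3.36 (1.45 to 5.26, SE 0.75, limma adjusted p = 0.0353), the second highest. HSP42 rose by 1.37 (0.81 to 1.94, SE 0.22, limma adjusted p = 0.0226), with 93 genes above it. Each of these 3 genes was higher in 2 of 2 pairs.

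The call for HSP42 was lost in 1 of 9 alternatives and those for HSP26 and HSP30 in 2 of 9. Without the filter on low genes the limma adjusted p were 0.0513 for HSP42, 0.116 for HSP26 and 0.0863 for HSP30. With the floor at the 40th percentile those of HSP26 and HSP30 were 0.0914 and 0.0691. Over the alternatives the limma adjusted p ran from 0.0161 to 0.0513 for HSP42, from 0.022 to 0.116 for HSP26 and from 0.0149 to 0.0863 for HSP30. With a trend along probe set numbers removed, the 3 calls were made again.

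HSP12, HSP78 and HSP104 did not pass. HSP12 was at -0.01 (95% interval -1.34 to 1.32, limma adjusted p = 1) and HSP104 at -0.02 (-1.21 to 1.17, limma adjusted p = 0.987), and both signs turned with the scaling, to 0.34 and 0.33 with the values as deposited and 0.26 and 0.16 with quantile normalization. The intervals are wide and do not show that the levels were alike. HSP78 was at 0.37 (limma adjusted p = 0.382). The estimate of HSP104 averaged opposite differences, since it was 1.40-fold lower under oxygen limitation on glucose and 1.36-fold higher on xylose.

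In the single pairs, the oxygen differences of HSP26 and HSP30 on glucose are lower bounds. Whether they were smaller than those on xylose therefore cannot be told. On xylose HSP30 was 43.4-fold higher under oxygen limitation, the highest of 5307 genes compared, and HSP26 21.3-fold higher, the second highest. On glucose HSP30 was at least 6.43-fold and HSP26 at least 4.93-fold higher, both bounds that have no exact rank. HSP42 was higher by 2.39-fold on glucose and by 2.81-fold on xylose. On each sugar 3 of the genes were at least 2-fold higher, where 4.5% of genes were on glucose and 9.36% on xylose, and 0 were at least 2-fold lower, where 11.5% and 15.4% were. HSP78 was at the floor on both glucose arrays and 1.67-fold higher on xylose. The unscaled values of HSP30, 5905 against 108.2 on xylose, give a larger ratio than the scaled ones, 5369 against 123.7.

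The third comparison asked how the petite mutant differs from its aerobic parent strain. By limma 0 of 6 genes passed, against 0.0183% of all genes higher and 0.0183% lower, and at an unadjusted p under 0.05 2 of the 6 were higher and 0 lower, against 11.6% of genes higher. HSP26 had the highest estimate of 5462 genes, 3.18 on the log2 scale (95% interval 1.28 to 5.08, SE 0.75), and missed the threshold with a limma adjusted p of 0.0624. Over 9 alternatives its adjusted p ran from 0.0467, with the floor at the 10th percentile, to 0.153. HSP30 was at 2.09 (0.22 to 3.96, SE 0.74, limma adjusted p = 0.122), with 27 genes above it. HSP12 was at 1.02 and HSP42 at 0.41, with limma adjusted p of 0.23 and 0.255. HSP78 was at -0.16 and HSP104 at -0.43, with limma adjusted p of 0.738 and 0.548. This comparison and that of oxygen limitation use the same aerobic arrays, so a low value there raises both estimates.

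On glucose HSP26 was at least 13.8-fold higher in the petite mutant than in aerobic cells, a bound set by the floor. HSP30 was higher by at least 4.54-fold, HSP12 by 4.2-fold and HSP42 by 1.53-fold, while HSP104 was 1.08-fold higher. Of 5 genes compared, 3 were at least 2-fold higher, where 4.72% of genes were, and 0 were at least 2-fold lower, where 5.05% were. On xylose HSP26 and HSP30 were 5.97-fold and 4-fold higher, which made 2 of 6 at least 2-fold higher, against 8.44% of genes, and 0 lower, against 13.5%. HSP12 was 1.02-fold lower there, HSP42 1.15-fold higher, HSP78 1.25-fold lower and HSP104 1.97-fold lower. The petite xylose cells had been transferred from glucose, so the mutant and the transfer cannot be told apart in these xylose values.

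Petite and oxygen-limited cells, set directly against each other, differed by sugar. On glucose HSP12 was 3.87-fold and HSP26 2.80-fold higher in the petite mutant, which made 2 of 5 genes at least 2-fold higher against 7.33% of all genes, while HSP30 was 1.42-fold and HSP42 1.56-fold lower and HSP104 1.51-fold higher. None was at least 2-fold lower, where 3.75% of genes were. On xylose 5 of 6 genes were at least 2-fold lower in the petite mutant, where 6.13% of genes were. HSP30 was lower by 10.9-fold, HSP26 by 3.57-fold, HSP104 by 2.67-fold, HSP42 by 2.45-fold and HSP78 by 2.08-fold. HSP12 was 1.09-fold higher, so 0 were at least 2-fold higher, where 6.95% of genes were. These pairs were not tested. The oxygen-limited cells were taken at a higher OD600 than the petite glucose cells, and the petite xylose cells came from a transfer. Neither can be told apart here from the mutant or the oxygen supply.

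**Figure D3:**
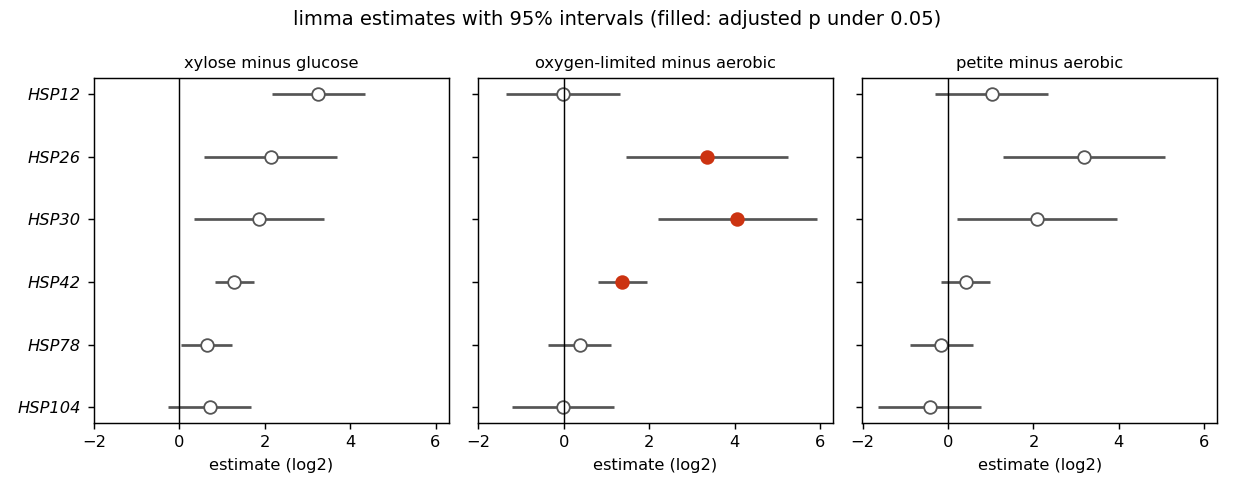
Limma estimates (log2) of the 6 genes in the 3 comparisons over 6 arrays, with bars for 95% intervals; filled points passed an adjusted p of 0.05. HSP26, HSP30 and HSP42 passed in the oxygen comparison, and 0 of the 6 passed in the other two.

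**Figure D4:**
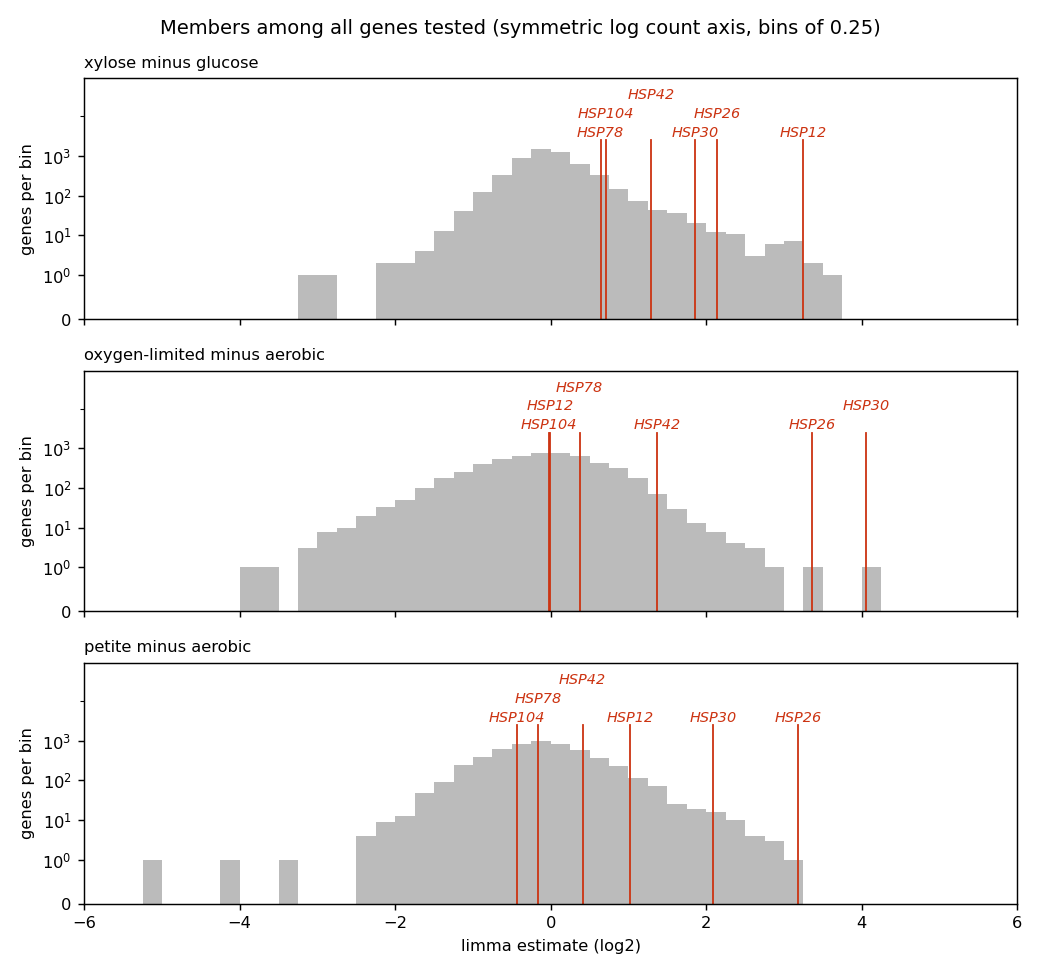
Number of genes (symmetric log axis, bins of 0.25) by limma estimate (log2) for all 5462 genes tested, with a red line at each of the 6 genes. HSP30 and HSP26 mark the upper end in the oxygen comparison and HSP26 in the petite comparison, whereas HSP104 and HSP12 lie at the middle in the oxygen comparison.

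Genes that work with these proteins, or mark stress and growth, were described from 7 lists. In the reported fit their counts under oxygen limitation are read against 8.04% of all genes called higher and 15.9% called lower. Among 12 cytosolic partners of the Hsp70 and Hsp90 class, 1 rose and 1 fell under oxygen limitation and 10 did not pass, counts near or below those shares of all genes. Their median was 0.11, beside 0.87 for the 6 genes. These were a pair of Hsp110 exchange factors for Hsp70. SSE2, the stress-induced form, rose by 1.43 (SE 0.35, limma adjusted p = 0.0423), from 109.1 and 195.3 on aerobic glucose and xylose to 215.2 and 714.9. SSE1, the constitutive form, fell by 1.49 (SE 0.27, limma adjusted p = 0.0256), from 2049 and 1814 to 858.1 and 551.2. SSE2 was at an adjusted p of 0.0502 with quantile normalization by limma, and SSE1 at 0.0498. The median of the list moved to 0.46 with the values as deposited and to 0.48 with quantile normalization. The heat-inducible Hsp70 gene SSA3 was at 1.86 and the constitutive SSA2 at -1.77, and neither passed. The SSA genes are close in sequence, so signal from one may reach the probes of another and their values are uncertain. In the sugar and petite comparisons 0 of the 12 passed.

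SSA1, which encodes the Hsp70 that works with Hsp104, was at 11350 on glucose and 16660 on xylose in aerobic cells. Its oxygen-limited values were 3965 and 10340, and its petite values 9076 and 4813. The sign of the sugar difference thus changed in the petite pair, as for HSP104, and the estimate of 0.34 did not pass. This was not particular to SSA1. In the same list SSA4 and HSP82 were also higher on xylose except in the petite pair, at 470.8 and 252.5 and at 1086 and 730 on glucose and xylose there. SSA2 was lower on xylose in 3 of 3 pairs, at -1.86, and did not pass either.

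Of 6 mitochondrial chaperone genes, which include the partners of Hsp78, 0 rose and 2 fell under oxygen limitation. These were the chaperonin gene HSP60, at -1.03 (SE 0.26, limma adjusted p = 0.0472), and its partner HSP10, at -0.75 (SE 0.18, limma adjusted p = 0.0398). Both calls were lost with the values as deposited, where limma adjusted p were 0.113 and 0.155, and with quantile normalization, at 0.174 and 0.202. As deposited, 1 of the 6 was called higher and 0 lower, where 1032 and 430 of 5487 genes were. The matrix Hsp70 gene SSC1 was at -0.77 and the escort gene ZIM17 at 0.90 without passing. The median of the 6 was -0.55, and HSP78 was at 0.37 in the same comparison. With the values as deposited that median was -0.20 and 3 of the 6 estimates were negative in place of 5, and with quantile normalization it was -0.27. On xylose 0 of the 6 passed, with a median of 0.15.

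The aggregate sorting factors BTN2 and CUR1 did not pass in any of the 3 comparisons. BTN2, whose product acts beside Hsp42 in collecting misfolded proteins, was highest on the oxygen-limited xylose array, at 316.2, and between 101.7 and 149.7 on the other 5 arrays. The paralogs of HSP30 did not share its range. MRH1 ran from 936.1 on petite xylose to 3238 on aerobic glucose. YRO2 rose under oxygen limitation by 1.41 (SE 0.30, limma adjusted p = 0.0316), with 1164 and 2307 on the oxygen-limited arrays against 647.9 and 587.6 on the aerobic ones, and was at 286.6 and 379.3 in the petite mutant.

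Among 7 genes of heat and stress regulators, 0 rose and 1 fell under oxygen limitation, the oxidative stress activator gene YAP1, at -1.31 (SE 0.25, limma adjusted p = 0.0276). That count is near the 15.9% of all genes called lower. YAP1 was at the floor on the oxygen-limited glucose array. HSF1 and MSN4 were at 0.93 and 0.97 with limma adjusted p of 0.053 and 0.0611. With the values as deposited 4 of the 7 were called higher and 1 lower, where 1032 and 430 of 5487 genes were. MSN4 was lowest on aerobic glucose, at 203.7, and highest on oxygen-limited xylose, at 767.4. MSN2 lay between 264 and 437.8 on the 6 arrays. In the sugar and petite comparisons 0 of the 7 passed. GIS1, an activator of genes used after glucose runs out, had the largest sugar estimate among them, 1.28, without passing.

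Of 16 known targets of Msn2 and Msn4, all 16 had positive sugar estimates, 2 of them past the threshold against 0.677% of all genes called higher, and the median was 1.33 beside 1.57 for the 6 genes and -0.03 for all genes. The 2 that rose were TMA10, a ribosome-associated stress gene, by 3.65 (SE 0.17) and the stress gene DDR2 by 3.11 (SE 0.21), both with a limma adjusted p of 0.0113. TMA10 was at the floor on the aerobic and oxygen-limited glucose arrays. Under oxygen limitation 2 of 16 rose and 0 fell, with a median of 0.78, and this count is near the 8.04% of all genes called higher. The cell wall gene SPI1 rose by 1.77 (SE 0.39, limma adjusted p = 0.0349) and the sugar lactonase gene SOL4 by 1.53 (SE 0.35, limma adjusted p = 0.0361). DDR2 was at 622.8, 728.3 and 1260 on glucose in aerobic, oxygen-limited and petite cells and at 5171, 8663 and 8194 on xylose. With the values as deposited 5 of the 16 rose under oxygen limitation, where 1032 of 5487 genes were called higher. Quantile normalization likewise gave 5, where 432 of 5462 genes were called higher. In the petite comparison 0 passed, with a median of 0.14, which was 0.39 as deposited and 0.30 with quantile normalization.

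Genes for cytosolic ribosomal proteins moved the other way, and their part in the results above was not tested. The 75 here are the RPL and RPS genes with a probe set that carries 1 gene symbol. Genes of the class measured only by probe sets with several symbols were left out. Of the 75, 0 rose and 32 fell under oxygen limitation, where 15.9% of all genes were called lower, with a median of -0.69. With the values as deposited 14 fell with a median of -0.33, where 430 of 5487 genes were called lower. With quantile normalization 9 fell with a median of -0.28, where 558 of 5462 genes were called lower, and this count is near that share. On xylose the median was -0.30, beside -0.03 for all genes, and 72 of 75 estimates were negative, with 0 past the threshold in either direction. In the petite comparison the median was -0.57 and 0 passed, and the median was -0.29 as deposited and -0.30 with quantile normalization. RNA was taken from whole cultures, so fewer cells with a transcript and less of it per cell cannot be told apart.

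Other genes were ranked by how closely their log2 intensities followed each of the 6 over the arrays, by Pearson correlation over 6 arrays. Candidates were the 2266 or 2267 other named genes above the floor on every array with a range of at least 1 on the log2 scale. With 6 points and that many candidates high values arise easily, so they describe the data only. Nearest to HSP12 were GDH2, which encodes an NAD-dependent glutamate dehydrogenase, with r = 0.9935, MSC1 with 0.9906 and CLD1, a cardiolipin phospholipase gene, with 0.9889. Nearest to HSP26 were YPS6, a cell wall protease gene, with 0.9997, MSN4 with 0.9935 and MSS1 with 0.9922. YPS6 ran from 87.2 to 343.5, far less than HSP26, which shows that the measure ignores the size of the change.

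For HSP30 the nearest were IME1, the master regulator of meiosis, with 0.9923, VHR1 with 0.9879 and UBX4 with 0.9856. For HSP42 they were the NAD kinase gene YEF1 with 0.9985, RGI1 with 0.9902 and CNL1 with 0.9872. RGI1 went from 89.6 on aerobic glucose to 2488 on oxygen-limited xylose, a wider range than that of HSP42. For HSP78 they were NUM1, which tethers mitochondria to the cell cortex, with 0.9946, PTK2 with 0.9839 and PSP1 with 0.9611. For HSP104 they were MDV1, a mitochondrial division gene, with 0.9902, EIS1 with 0.972 and the metal transporter gene SMF1 with 0.9697. The arrays share one floor and one scaling, and the values of HSP26, HSP30 and HSP78 at the floor enter as the floor.

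Among the 6 genes themselves the highest correlations were 0.92 between HSP26 and HSP30, 0.91 between HSP30 and HSP42 and 0.90 between HSP78 and HSP104. The lowest was 0.44, between HSP26 and HSP104. HSP12 correlated with the others between 0.47 and 0.67. All are descriptions over the same 6 arrays.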

How the data were processed

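RNA from 6 yeast cultures was hybridised to Affymetrix GeneChip arrays, per the labels. The deposited table holds a linear intensity for each probe set, 14 of them below 0. How the authors averaged and scaled these intensity values, and with which software, is not given in the sources used here. The table lists 9335 probe sets, of which 1 lacked a value and 60 were controls, and these were left out. Of the other 9274, 6504 carried 1 gene symbol, 328 several and 2442 none, by GEO's platform annotation updated through the RefSeq table of assembly R64. The files name no build, so no coordinates are given. No other column of sample values was in the table.

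Arrays were brought to one median, low values were raised to the floor at the 25th percentile and log2 was computed. Where a gene had several probe sets, the brightest on average was used. Limma 3.58.1 in R 4.3.3 fitted background and sugar with moderated variances and 2 residual degrees of freedom, and p-values were adjusted over all 5462 genes with an array above the floor by Benjamini-Hochberg at 0.05. The model treats the sugar effect as equal in the 3 backgrounds. With 1 array a condition, its p-values measure departure from that, not the spread between cultures, and the small number of arrays limits precision. Differences between 2 arrays carry no test, and are bounds where 1 array was at the floor. The spread between probe sets is the median over genes of the SD of a difference among probe sets of 1 gene.

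The 6 genes and the lists were chosen with earlier results of these data known. The genes named are the 6, every listed gene that passed, up to 4 examples per list with the largest absolute estimate, and the 3 genes most similar to each of the 6. SSA1, SSA4, HSP82 and MSN2 fall outside that rule and were chosen after their values were seen. The fit was tested on simulated data with equal shifts and normal noise, in genes well above the floor. That setting does not cover unequal sugar differences or arrays at the floor, as for HSP26 and HSP30. Alternatives used unscaled or quantile-normalized values, floors at the 10th or 40th percentile, averaged probe sets, a variance trend, no filter on low genes, removal of a running median along probe set numbers (window 201), fits that left out 1 pair, single sugars and a 3-fold threshold.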

Additional observations from a re-analysis of the deposited data

Results flagged for a closer look

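Differences under the same contrast were singled out where 2 pairs of arrays gave opposite signs, and the difference between them was not tested. HSP26 differed between petite and oxygen-limited cells by 1.48 on the log2 scale on glucose and -1.83 on xylose, 3.31 apart, and HSP104 by 0.59 and -1.42, 2.01 apart. The sugar difference of HSP104 was 1.69 under oxygen limitation and -0.32 in the petite mutant, 2.01 apart. These values all exceed the spread between probe sets of their pairs. In the other cases at least 1 value lies within that spread. For HSP104, oxygen-limited minus aerobic was -0.48 on glucose (spread 0.49) and 0.44 on xylose (0.38), 0.92 apart, and petite minus aerobic was 0.11 on glucose (0.34) and -0.98 on xylose (0.35), 1.09 apart. For HSP12, petite minus aerobic was 2.07 on glucose (0.34) and -0.02 on xylose (0.35), 2.09 apart, and oxygen-limited minus aerobic was 0.12 on glucose (0.49) and -0.14 on xylose (0.38), 0.26 apart.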

How the results depend on the processing

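In the oxygen comparison 3 of the 6 genes were called as reported, 1 with the floor at the 40th percentile and 0 without the filter on low genes. In the sugar comparison 0 were called as reported, 1 with the values as deposited, 1 with a variance trend, 1 without the petite pair and 2 with the floor at the 10th percentile. In the petite comparison 0 were called as reported and 1 with the floor at the 10th percentile. The signs of HSP12 and HSP104 in the oxygen comparison turned, to 0.34 and 0.33 with the values as deposited and to 0.26 and 0.16 with quantile normalization. Single-pair differences of the 6 genes past 2-fold in either direction numbered 29 over the 9 pairs, and 19 at 3-fold. At 2-fold, 5 were lower, all in petite minus oxygen-limited xylose. Of all genes, 3.13% to 9.36% were at least 2-fold higher in a pair and 2.1% to 15.4% at least 2-fold lower. No such share is given at 3-fold. The pairs reuse the same 6 arrays, so the differences are not separate observations. Genes called over the 3 comparisons in the 6 lists other than ribosomal proteins numbered 10 as reported and 17 with the values as deposited. They numbered 19 and 2 with the floor at the 10th and 40th percentile and 1 without the filter. Of all genes, 8.04% were called higher and 15.9% lower under oxygen limitation as reported, and 0.677% and 0.0732% on xylose. The list counts show how processing moved the calls and are not a result about the lists. Over all genes, sugar calls were 37 higher and 4 lower as reported, 83 and 15 with the floor at the 10th percentile, 0 and 0 at the 40th or without the filter, 0 and 0 without the oxygen-limited pair, 12 and 0 without the petite pair, 20 and 3 with quantile normalization and 22 and 2 with averaged probe sets. Oxygen calls were 439 and 868 as reported, 1032 and 430 as deposited, 432 and 558 with quantile normalization, 214 and 626 with the floor at the 40th percentile and 229 and 467 without the filter. Petite calls were 1 and 1 as reported, 168 and 31 as deposited, 219 and 340 with the floor at the 10th percentile, 110 and 133 with the probe set number trend removed and 133 and 230 with a variance trend, and 0 and 0 with quantile normalization, the floor at the 40th percentile, averaged probe sets or no filter. The causes were not tested. The sugar comparison is paired within each background, which enters the reported fit as a block. Replicate numbers pair nothing, since each condition has 1 array.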
